A study of Mus musculus with 6 samples.

Results

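The genes described here are 10 negative-feedback and target genes of the ERK branch of MAP kinase signalling: the phosphatases Dusp4, Dusp5 and Dusp6, the inhibitors Spred1 and Spred2, the inhibitors Spry1, Spry2 and Spry4, and the ETS transcription factors Etv4 and Etv5. They were taken by symbol from a raw count table of 33157 gene rows, and each of the 10 had 1 row. They were chosen by their roles together with their known log2 fold changes between cultures with and without IGF-1. Their values in that comparison, and any call on them in a fit over all genes, are therefore a description and not a test. The cells were ILC3s (group 3 innate lymphoid cells), lymphocytes that reside in the gut, and came from wild-type mouse small intestine, sorted as CD45dim, CD90.2hi, CD127+, KLRG1- cells without lineage markers. In both groups the culture lasted 4 h and contained the type 1 cytokine interferon-γ (IFN-γ) at 20 ng/mL, and the RNA was then sequenced in bulk. The control group (Ctrl) received IFN-γ alone and the other group (Igf1) received IFN-γ with insulin-like growth factor 1 (IGF-1) at 200 ng/mL, with 3 libraries in each. No culture without IFN-γ was part of the comparison, so the effect of IFN-γ itself on these genes was not measured.

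The IGF-1 receptor is a tyrosine kinase that feeds both the PI3K-AKT route and the RAS-RAF-MEK-ERK cascade. Active ERK raises the transcription of genes whose products in turn damp the cascade: dual-specificity phosphatases remove the activating phosphates from ERK, and Spred and Sprouty proteins act further up, at RAS and RAF or near the receptor. Etv4 and Etv5 are ETS factors of the PEA3 group whose transcription follows ERK activity and is held down by the repressor capicua. Transcripts of these genes are often read as a trace of recent ERK activity, but ERK phosphorylation was not part of these data.

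Total counts ranged from 32573713 to 39206449 per library, so that 3 counts, the limit a count of 0 allows, correspond to 0.0772 to 0.0897 CPM. CPM here are read counts relative to library size after TMM scaling, which adjusts library sizes for composition. Nothing in the labels states that libraries of 1 group are from different mice or wells, and p-values therefore reflect the scatter among libraries alone, which may be technical. The ILC3 markers fixed for the check were all detected, and their summed level was 8030 to 8770 CPM in the control libraries and 9750 to 10100 CPM in the IGF-1 libraries. The part of this shift in the values below was not tested. Summed markers of NK cells (37.3 to 48.1 CPM), T cells, ILC2s, myeloid cells, mast cells, epithelium, fibroblasts and endothelium overlapped between the groups. Most of these sums rest on single genes, such as Cst3 for myeloid cells. Cd4 (means 33.3 and 23.1 CPM), Pecam1 (93.4 and 80.3) and Lgals4 (6.58 and 4.69) were lower with IGF-1 without overlap. The groups did not overlap in that direction for 9.17% of all genes tested. Cdh1, at 1 control and 16 IGF-1 counts, was higher without overlap. Ncr1, Cd160 and Cd244a, outside the NK list, were higher with IGF-1. Whether cell composition differed was not tested. In the NK list Eomes and Klra8 had 0 counts in all 6 libraries, while Klrb1c, which gave most of the sum, was at 26.7 to 42.5 CPM. The B cell list stood at 17.7 to 35.7 CPM in 5 libraries and at 555 CPM in control replicate 3, where 519 CPM came from Jchain, a plasma cell gene at 0.103 to 0.209 CPM elsewhere. In that list Ms4a1 had 0 counts in all 6 libraries and Cd79b was at 17.2 to 35.6 CPM. Fold changes without this library are given beside Dusp5, Spred1, Spry1, Spry4 and Etv5.

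With IGF-1, Dusp6, both Spred genes and Etv5 had higher transcript levels in all 3 libraries than in any control library, whereas Spry2 was lower in all 3. Dusp4, Dusp5, Spry1 and Spry4 overlapped between the groups, and Etv4 was barely detected. Of the 10 genes 9 passed the filter on low counts, and 1 of these 9, Dusp6, had an adjusted p under 0.05 in edgeR's quasi-likelihood test over all genes, where 0.497% of the 13483 tested genes did. Groups did not overlap, with IGF-1 above, for 4 of the 9, against 8.81% of all genes tested, and with IGF-1 below for 1 of the 9, against 9.17%. Because this same contrast chose the genes, nothing is read from those counts. The 9 log2 fold changes ran from -0.83 to 3.00 with 4 above 0 and a median of -0.12, and over all genes tested 48.7% were above 0 with a median of -0.01. In bulk RNA, fewer cells that express a gene and less RNA per cell cannot be told apart.

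**Figure D1:**
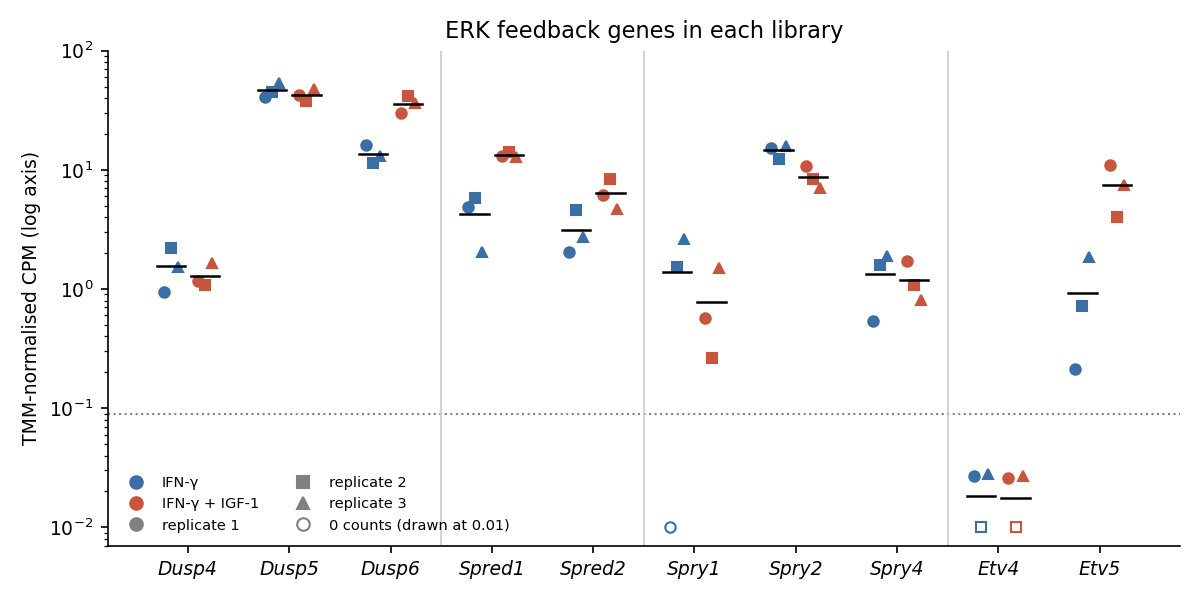
TMM-normalised CPM on a log axis for each of the 10 genes, with blue points for the 3 libraries with IFN-γ alone, red points for the 3 with IFN-γ and IGF-1, symbol shape for the replicate number and black bars for the group means. Open symbols are libraries with 0 counts, drawn at the bottom of the axis, and the dotted line is the highest of the 6 values that 3 counts correspond to, 0.0897 CPM. The red points lie above all blue points for Dusp6, Spred1, Spred2 and Etv5 and below them for Spry2.

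The phosphatases differed from one another. Dusp6, a cytoplasmic phosphatase selective for ERK, was at 16.2, 11.4 and 13.2 CPM in control replicates 1 to 3 and at 30.2, 41.6 and 36.1 CPM in IGF-1 replicates 1 to 3. The lowest IGF-1 library was well above the highest control library. The mean was 13.6 ± 2.40 CPM without and 36.0 ± 5.71 CPM with IGF-1 (SD, n = 3 each), a log2 fold change of 1.40 (SE 0.20), or 2.64-fold. Leaving out 1 library at a time gave log2 fold changes from 1.28 to 1.55, but an adjusted p under 0.05 was kept in 1 of these 6 fits, the one without control replicate 1.

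Dusp5, a nuclear phosphatase that is also selective for ERK, was the most abundant of the 3 and lay at 41.2, 44.8 and 53.4 CPM in the control libraries and at 42.6, 37.6 and 47.9 CPM with IGF-1. The groups overlapped in part, with control replicate 3 above and IGF-1 replicate 2 below the range of the other group. The log2 fold change was -0.12 (SE 0.16), and -0.01 without control replicate 3. Dusp4, a nuclear phosphatase that acts on ERK and other MAP kinases, was at 0.94, 2.21 and 1.53 CPM in the control libraries and 1.16, 1.07 and 1.66 CPM with IGF-1. Its control libraries spanned the IGF-1 libraries, and its log2 fold change of -0.27 (SE 0.64) turned to 0.07 without control replicate 2. In counts Dusp4 held 164 reads over the control libraries and 144 over the IGF-1 libraries, which limits what its values can show.

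The balance between Dusp6 and Dusp5 within a library does not depend on how libraries are scaled to one another. Dusp6 had 0.393, 0.255 and 0.247 counts per Dusp5 count in the control libraries and 0.710, 1.11 and 0.753 with IGF-1. The mean ratio was 0.298 ± 0.0817 and 0.857 ± 0.218 (SD, n = 3 each), and the groups did not overlap. Since the numerator was known to be high with IGF-1, the ratio is given as a description.

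The Spred proteins bind RAS pathway components at the membrane and bring in neurofibromin, which switches RAS off. Spred1 was at 4.91, 5.77 and 2.06 CPM in the control libraries and at 13.1, 14.0 and 12.9 CPM with IGF-1. The IGF-1 libraries lay close together, with an SD of 0.577 CPM, while the control libraries varied more, with an SD of 1.94 CPM around a mean of 4.25 CPM. The log2 fold change was 1.65 (SE 0.37), or 3.14-fold, and 1.32 without control replicate 3, the library with the lowest Spred1 and the Jchain signal.

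Spred2 was at 2.04, 4.63 and 2.73 CPM in the control libraries and at 6.13, 8.38 and 4.73 CPM with IGF-1. The groups only just failed to overlap, since control replicate 2 at 4.63 CPM lay next to IGF-1 replicate 3 at 4.73 CPM. The log2 fold change was 1.03 (SE 0.42), or 2.05-fold, and ran from 0.79 to 1.42 when single libraries were left out. Spred1 had 2.41, 1.25 and 0.755 counts per Spred2 count in the control libraries and 2.14, 1.67 and 2.72 with IGF-1. The proportion of the 2 Spred transcripts therefore overlapped between the groups while both were higher. Spred3, the remaining family member, had 37 counts in the control group and 43 with IGF-1 and did not pass the filter.

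Sprouty proteins inhibit signalling from receptor tyrosine kinases to RAS and ERK, and of their 3 genes only Spry2 had groups that did not overlap. Spry2 was at 15.4, 12.4 and 16.0 CPM in the control libraries and at 10.8, 8.41 and 7.05 CPM with IGF-1. The highest IGF-1 library was below the lowest control library, and the means were 14.6 ± 1.93 and 8.76 ± 1.90 CPM (SD, n = 3 each). The log2 fold change of -0.73 (SE 0.25), or 0.601-fold, ran from -0.92 to -0.60 when single libraries were left out.

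Spry1 was unsteady between libraries. It had 0, 51 and 94 counts in the control libraries, or 0.0, 1.52 and 2.62 CPM, and 22, 9 and 56 counts with IGF-1, or 0.566, 0.261 and 1.5 CPM. Control replicate 1 thus fell under every IGF-1 library and control replicate 3 above. Control replicate 2 at 1.52 CPM lay next to IGF-1 replicate 3 at 1.5 CPM and was below it in counts (51 against 56). The 0 counts of control replicate 1 allow a level of up to 0.0806 CPM for counting error only. The log2 fold change of -0.83 (SE 1.30) was 0.03 without control replicate 3, -1.73 without IGF-1 replicate 3 and 0.83 by limma-voom. No direction can be given for Spry1 at this spread.

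Spry4 was at 0.537, 1.58 and 1.89 CPM in the control libraries and at 1.73, 1.07 and 0.802 CPM with IGF-1. The groups overlapped, the log2 fold change was -0.16 (SE 0.73), and it turned to 0.18 when control replicate 3 was left out and to 0.07 when IGF-1 replicate 3 was. Counted together, the Spred genes had 0.437, 0.672 and 0.234 counts per Sprouty count in the control libraries and 1.47, 2.29 and 1.88 with IGF-1. Every library with IFN-γ alone thus held more Sprouty than Spred reads and every library with IGF-1 more Spred than Sprouty reads. The mean ratio was 0.448 ± 0.219 and 1.88 ± 0.413 (SD, n = 3 each), and Spry2 made up most of the Sprouty reads. These are reads not divided by length, and Spred1 and Spred2 have 6784 and 4619 exon bases against 2087 for Spry2. Per kb of exon with IGF-1, Spry2 at a mean of 4.20 CPM remained above Spred1 at 1.96 and Spred2 at 1.39. The change from more Sprouty to more Spred therefore holds for reads only.

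**Figure D2:**
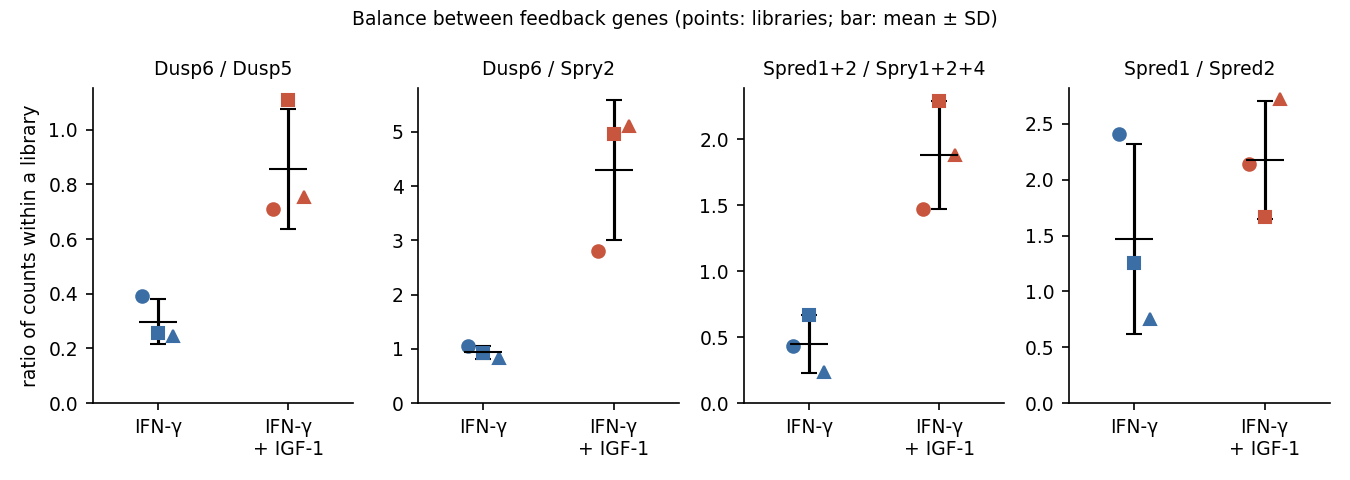
Ratios of read counts within each library, on axes that start at 0, for Dusp6 to Dusp5, Dusp6 to Spry2, the 2 Spred genes to the 3 Sprouty genes, and Spred1 to Spred2. Points are libraries with IFN-γ alone (blue) or with IFN-γ and IGF-1 (red), and bars are means ± SD over 3 libraries. In the first 3 ratios the groups are apart, and for Spred1 to Spred2 they overlap.

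Of the ETS factors, Etv5 had the highest fold change of the 9 genes above the filter and a low level. It was at 0.215, 0.717 and 1.87 CPM in the control libraries, from 8, 24 and 67 counts, and at 11.0, 4.00 and 7.45 CPM with IGF-1, from 429, 138 and 279 counts. All IGF-1 libraries were above all control libraries, although the libraries within each group also differed several-fold. The means were 0.933 ± 0.847 and 7.50 ± 3.52 CPM (SD, n = 3 each), with a log2 fold change of 3.00 (SE 0.71), or 8.02-fold. Control replicate 3, the library with the Jchain signal, had the highest control value, and without it the log2 fold change was 4.01. Without control replicate 1 it was 2.54.

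Etv4 had 1, 0 and 1 counts in the control libraries and 1, 0 and 1 with IGF-1. With 2 reads per group in all, it was under the limit that a count of 0 allows, and no fold change is given. Etv1, the third PEA3 factor, had 1 count in each group, so Etv5 was the single member of the PEA3 group measured above the filter in these cells.

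**Figure D3:**
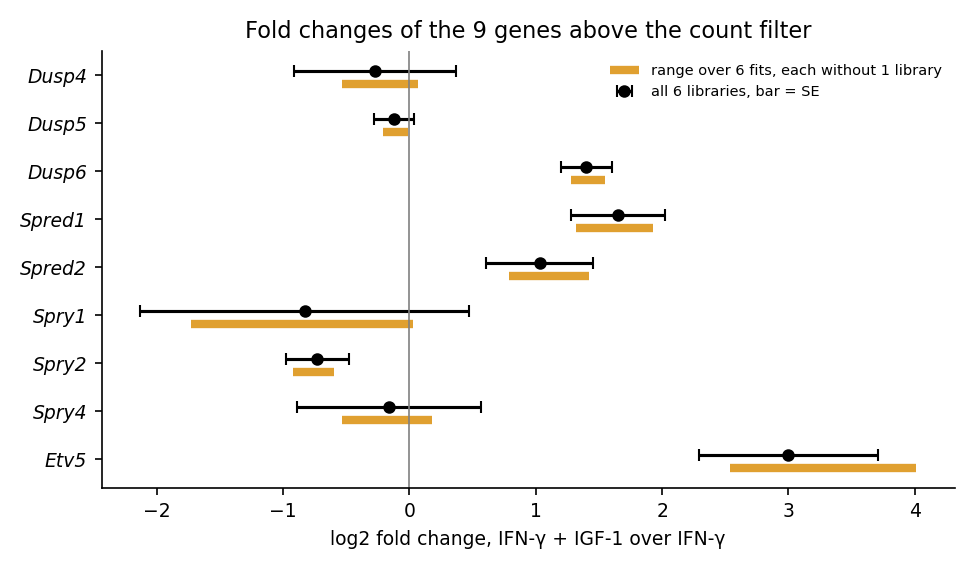
Log2 fold changes of IFN-γ with IGF-1 over IFN-γ alone for the 9 genes that passed the count filter. Black points with bars are estimates ± SE from all 6 libraries, and orange bars span the 6 fits with 1 library removed. The orange bars of Dusp6, Spred1, Spred2 and Etv5 lie above 0, and those of Dusp4, Spry1 and Spry4 cross 0. The bars of Spry2 and Dusp5 lie below 0, that of Dusp5 only just (-0.21 to -0.01).

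Levels of different genes were compared as CPM per kb of exon. In the control libraries Dusp5 led at 18.8 ± 2.54 CPM per kb, followed by Spry2 at 6.98 ± 0.923 and Dusp6 at 4.34 ± 0.765 (SD, n = 3 each). The libraries of these 3 genes did not overlap with those of the next gene in the order. Spred2, Spred1, Dusp4, Spry1, Spry4 and Etv5 came next, from 0.679 down to 0.227 CPM per kb, and each overlapped with its neighbour.

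With IGF-1 the order per length began with Dusp5 at 17.3 ± 2.08 CPM per kb, Dusp6 at 11.5 ± 1.82 and Spry2 at 4.20 ± 0.912, again each apart from the next. Dusp6 thus stood above Spry2 with IGF-1 and below it without. Spred1 at 1.96 ± 0.085, Etv5 at 1.83 ± 0.858 and Spred2 at 1.39 ± 0.399 CPM per kb overlapped with their neighbours and formed a middle tier above Dusp4, Spry1 and Spry4, which lay between 0.473 and 0.252. Even at its higher level, Etv5 remained below Dusp5 per length in every library.

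**Figure D4:**
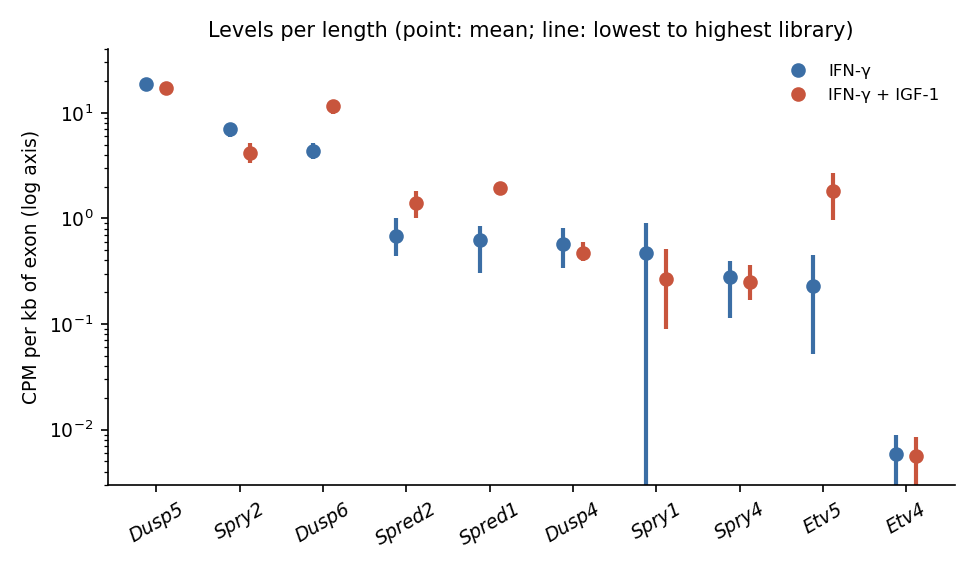
CPM per kb of exon on a log axis for the 10 genes, ordered by their mean with IFN-γ alone. Points are means of 3 libraries and lines run from the lowest to the highest library, blue for IFN-γ alone and red for IFN-γ with IGF-1, and a line that reaches the lower edge includes a library with 0 counts. Dusp6 moves past Spry2, and Etv5 from the ninth place to the fifth.

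The promoters of these genes were searched for short motifs. RefSeq's table (GRCm38.p6, an earlier build than the GRCm39 named for the counts) held windows for 7 of the 10 genes, 8 windows in all, and the 250 bases before each start were read on both strands. The motifs were CCGGAAGT for ETS factors, TGANTCA for AP-1, TGACGTCA for CREB-type factors, TGAATGAA for capicua, TTCNNNGAA for STAT factors, GTAAACA for FOXO factors and the CArG box of SRF. Of these, 2 motifs were found in 2 genes: 2 CArG boxes, set side by side 82 to 63 bases before the start of Dusp5, and 1 FOXO motif 183 to 177 bases before the upstream start of Etv5. A CArG box is in 1.47% of all 32851 windows of this length and the FOXO motif in 3.17%. Dusp6, Spred1, Spred2, Spry1 and Spry2 held none of the 7 motifs in these windows, which says only that these letters are not there.

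The windows of Dusp6, Spred1 and Etv5 are shown because these genes had the highest folds, and that of Dusp5 because it is the abundant phosphatase whose groups overlapped. Each runs 5′ to 3′ on the gene's strand and ends at the base before the start, and capitals mark the motifs named above. Dusp6 lies at chr10:99262981-99263230 (plus strand), Spred1 at chr2:117120821-117121070 (plus strand), Etv5 at chr16:22439571-22439820 (minus strand) and Dusp5 at chr19:53528895-53529144 (plus strand), all in GRCm38.p6.
Dusp6: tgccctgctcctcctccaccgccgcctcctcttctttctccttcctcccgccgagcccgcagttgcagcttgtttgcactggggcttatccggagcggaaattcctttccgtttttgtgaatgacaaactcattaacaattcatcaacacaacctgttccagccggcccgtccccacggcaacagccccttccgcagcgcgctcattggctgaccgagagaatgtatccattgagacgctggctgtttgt
Spred1: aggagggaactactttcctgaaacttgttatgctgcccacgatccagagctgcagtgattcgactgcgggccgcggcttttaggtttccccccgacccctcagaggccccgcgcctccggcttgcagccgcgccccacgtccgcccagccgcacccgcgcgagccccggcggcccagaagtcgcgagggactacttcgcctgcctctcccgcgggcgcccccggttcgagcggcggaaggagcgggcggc
Etv5: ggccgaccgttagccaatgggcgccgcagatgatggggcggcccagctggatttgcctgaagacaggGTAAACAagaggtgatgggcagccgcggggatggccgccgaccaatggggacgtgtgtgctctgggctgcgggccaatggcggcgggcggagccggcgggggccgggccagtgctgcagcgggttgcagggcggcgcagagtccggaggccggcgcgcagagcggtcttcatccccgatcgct
Dusp5: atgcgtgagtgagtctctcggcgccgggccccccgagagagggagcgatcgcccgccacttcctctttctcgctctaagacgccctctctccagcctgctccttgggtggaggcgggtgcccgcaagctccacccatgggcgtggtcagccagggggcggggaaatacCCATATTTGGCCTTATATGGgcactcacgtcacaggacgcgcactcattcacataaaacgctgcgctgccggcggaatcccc
The G and C content was 56.4% for Dusp6, 70.8% for Spred1, 71.2% for Etv5 and 64.0% for Dusp5, against a median of 52.4% over all windows. The genes higher with IGF-1 thus shared none of the searched motifs.

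Other genes of the pathway were examined to set these values in context. Of 113 genes in 8 lists 100 passed the filter, and 3 of them, Gab3, Emp1 and Gadd45a, were lower with IGF-1 at an adjusted p under 0.05 by edgeR's quasi-likelihood test, against 0.267% of all genes tested, and 0 were higher. Over all genes tested edgeR called 0.497% in either direction, so 0 calls in a single list is near that share. At an unadjusted p under 0.05 there were 4 higher and 11 lower, 15 of the 100 in all, against 11.8% of all genes tested. DESeq2 called 1 higher, Hbegf, and 7 lower, and limma-voom 0 higher and 4 lower. The median log2 fold change over the 100 was -0.05, with 37 above 0.

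No gene of the cascade itself passed the test, which is near the share of 0.497% over all genes tested. Among RAF, MEK, ERK and scaffold genes 0 of 12 were called by edgeR and 0 had an unadjusted p under 0.05, and DESeq2 and limma-voom also called 0. Their log2 fold changes stayed between -0.21 and 0.14. The groups did not overlap for 2 of the 12, Map2k2 and Braf, both lower with IGF-1, against 9.17% of all genes tested. Mapk3, named after its value was seen, was at 92.8 ± 6.86 and 100 ± 8.23 CPM (SD, n = 3 each; log2 fold change 0.11, SE 0.12). The smallest p in the list belonged to the MEK gene Map2k2 (-0.20, SE 0.11), Braf (-0.21, SE 0.14) and the scaffold Iqgap1 (-0.20, SE 0.15), with adjusted p from 0.54 to 0.675.

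Upstream, edgeR and limma-voom called 1 of 14 adaptor and exchange factor genes, Gab3, and DESeq2 and the fit with no filter also called Gab2 lower. Gab3, a docking adaptor of growth factor receptors, fell from 253 ± 18.9 to 122 ± 32.0 CPM (SD, n = 3 each; log2 fold change -1.06, SE 0.18, adjusted p = 0.0392 by edgeR's quasi-likelihood test). Its relative Gab2 was at 36.4 ± 10.8 and 19.9 ± 4.94 CPM (-0.87, SE 0.26, adjusted p = 0.195), the exchange factor Rasgrp1 at 429 ± 51.0 and 351 ± 7.46 CPM (-0.29, SE 0.12) and Sos1 at 42.8 ± 3.99 and 36.2 ± 3.00 CPM (-0.24, SE 0.15). Leaving out single libraries gave Gab3 adjusted p from 0.0302 to 0.231, and the call was kept only without IGF-1 replicate 3. With the replicate number as a block its adjusted p was 0.0775.

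Among RAS proteins and RAS GTPase activators edgeR called 0 of 16, with 0 higher and 2 lower at an unadjusted p under 0.05, and DESeq2 and limma-voom called 0. The 3 with the smallest p were Lztr1, an adaptor for RAS ubiquitination (-0.35, SE 0.13, adjusted p = 0.322), and the activators Rasa3 (-0.53, SE 0.23) and Rasal2 (-1.21, SE 0.66). Neurofibromin (Nf1), the partner of the Spred proteins and named after its value was seen, stood at 13.8 ± 3.55 and 12.7 ± 3.26 CPM (SD, n = 3 each; log2 fold change -0.13, SE 0.28).

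Of the 7 other MAP kinase phosphatases 6 passed the filter and 0 were called by edgeR, DESeq2 or limma-voom, with 0 at an unadjusted p under 0.05. Dusp16, which acts mainly on JNK and p38, was at 35.2 ± 4.83 and 27.5 ± 4.56 CPM (-0.36, SE 0.18, adjusted p = 0.479), the nuclear Dusp2 at 4.16 ± 2.01 and 6.71 ± 2.93 CPM (0.69, SE 0.47) and Dusp10 at 7.63 ± 2.32 and 9.88 ± 1.32 CPM (0.37, SE 0.29). The groups overlapped for all 6. Dusp9 had 4 counts in the control group and 0 with IGF-1 and was under the filter. Whether Dusp6 differs from its relatives in its response was not tested.

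Kinases and factors downstream of ERK held 0 of 19 called genes by edgeR, with 1 higher and 1 lower at an unadjusted p under 0.05, and 0 by DESeq2 and limma-voom. The ribosomal S6 kinase Rps6ka1 was at 42.6 ± 6.75 and 60.4 ± 4.67 CPM (0.50, SE 0.15, adjusted p = 0.211), the ETS repressor Etv6 at 131 ± 5.82 and 100 ± 14.1 CPM (-0.39, SE 0.13) and the kinase Mknk1 at 19.2 ± 4.02 and 23.1 ± 2.76 CPM (0.27, SE 0.21). Capicua (Cic), named after its value was seen, was at 33.0 ± 2.78 and 31.0 ± 6.73 CPM (SD, n = 3 each; -0.09, SE 0.18).

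Among other transcripts that ERK can induce, edgeR called 1 of the 20 tested, and it was lower. Il2ra was also called lower by DESeq2, limma-voom, library size scaling and both other filters, and Hbegf higher by DESeq2 and with no filter. The membrane protein gene Emp1 fell from 209 ± 27.3 to 112 ± 8.92 CPM (SD, n = 3 each; log2 fold change -0.90, SE 0.13, adjusted p = 0.0229 by edgeR's quasi-likelihood test). Il2ra, the IL-2 receptor alpha chain (-0.62, SE 0.12, adjusted p = 0.0688), the growth factor Hbegf (0.52, SE 0.13, adjusted p = 0.139) and the early response factor Egr1 (0.54, SE 0.29, adjusted p = 0.513) had the next smallest p. The list's median was -0.10 with 8 above 0. Leaving out single libraries gave Emp1 adjusted p from 0.0327 to 0.144, with the call kept only without control replicate 1, and the replicate block gave 0.0816.

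In the JNK and p38 arms of MAP kinase signalling, edgeR and limma-voom called 1 of 13 tested genes, and DESeq2 and the fit with no filter also called Gadd45b and Map3k5 lower. Gadd45a, a stress-induced activator of these arms, fell from 46.2 ± 5.31 to 25.7 ± 2.27 CPM (SD, n = 3 each; -0.84, SE 0.15, adjusted p = 0.0496 by edgeR's quasi-likelihood test). That call was lost without any single library (adjusted p from 0.0622 to 0.281), with the replicate block (adjusted p = 0.108) and with library size scaling (adjusted p = 0.0582). The kinases Map3k5 (-0.71, SE 0.18), Map2k6 (1.31, SE 0.41) and Mapk9 (0.35, SE 0.12) had the next smallest p, with adjusted p from 0.145 to 0.254.

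**Figure D5:**
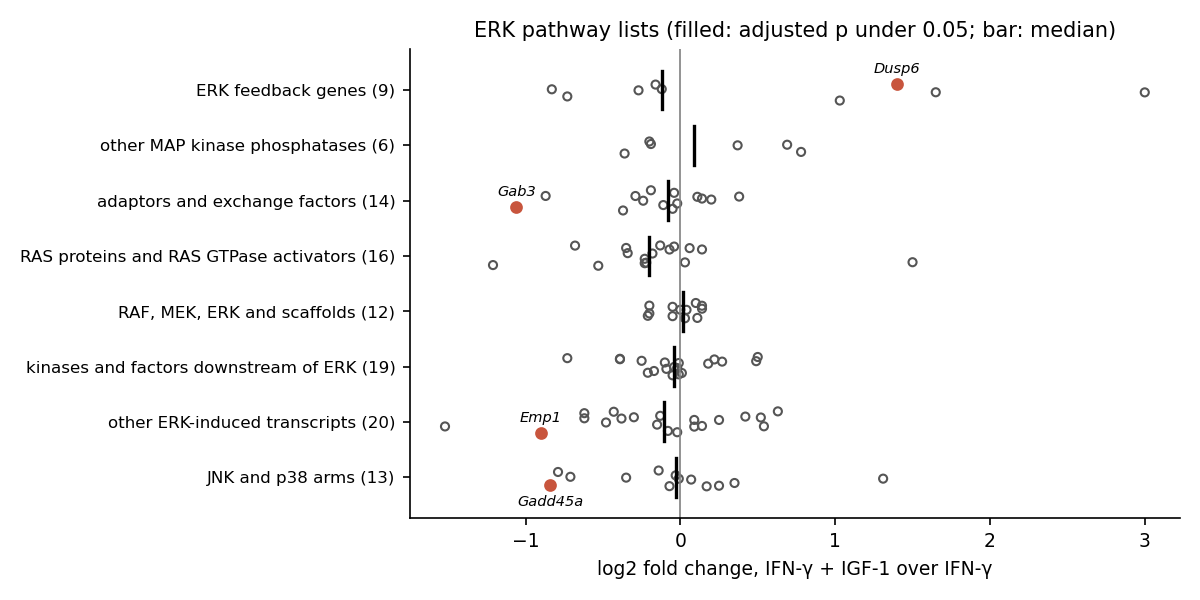
Log2 fold changes of IFN-γ with IGF-1 over IFN-γ alone for each gene that passed the filter, by list, with the number of genes in parentheses and a black bar for the median. Filled red points have an adjusted p under 0.05. The ERK feedback genes, chosen with these fold changes known, reach from -0.83 (Spry1) to 3.00 (Etv5), both genes with low counts. RAF, MEK, ERK and scaffold genes lie between -0.21 and 0.14, and RAS proteins and RAS GTPase activators between -1.21 and 1.5. Whether the spread differs between lists was not tested.

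The genes outside the pathway whose pattern over the 6 libraries was most like that of Dusp6 were Ppp1r14c, Cd160, Slc16a6, Cd244a and Ncr1. Likeness was the root mean square difference of centred log2(CPM + 0.5) among 8562 genes with a mean of at least 10 CPM. It was 0.10 for the phosphatase inhibitor Ppp1r14c, 0.15 for the receptor Cd160, 0.18 for the transporter Slc16a6 and 0.20 for the receptors Cd244a and Ncr1, against a median of 0.73. Of the feedback genes, Spred1 at 0.47 and Spred2 at 0.52 were nearest to Dusp6 by the same measure and Spry1 at 1.33 farthest. Cd160, for example, was at 31.1, 22.4 and 32.9 CPM in the control libraries and 67.2, 101 and 72.3 CPM with IGF-1, so that, as for Dusp6, replicate 2 was the lowest control and the highest IGF-1 library. With 6 libraries in 2 groups, such likeness rests mostly on the difference between the groups.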

How the data were processed

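Per the labels' protocols, cells were lysed and turned into libraries by the SMART-Seq HT kit, which does not mark strand. The authors deposited unnormalised read counts by gene symbol. The submitters' processing notes list featureCounts 1.5.3, HISAT2 2.2.1, fastp 0.23.2 and SAMtools 1.15.1 and the build GRCm39, without roles. The annotation release and strand setting were not given in the sources used here. In GENCODE M21 an opposite-strand gene overlaps 547 exon bases of Dusp5 and 577 of Spry1, and such reads cannot be told apart without strand.

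Libraries were grouped by title. The labels give no batch. Genes were kept by filterByExpr (minimum count 10, minimum total 15), leaving 13483, and fitted in edgeR 4.0.16 (R 4.3.3; TMM, glmQLFit, glmQLFTest, group as the only term) with Benjamini-Hochberg adjustment at 0.05. SE is the log2 fold change over the square root of F. Exon length is the union of GENCODE M21 exons (GRCm38). Named pathway genes are those called plus the 3 further with the smallest p per list. The members and lists were chosen with earlier results of these data known. Library pairs within groups differed beyond sampling noise (chi-square per degree of freedom 38.7 to 89.3). The fit was tested on simulated data with changes planted only in genes with a mean of at least 10 CPM. That test does not cover changes in the feedback genes below this level. Alternatives were a replicate block, other scalings, DESeq2 1.42.0, limma-voom (limma 3.58.1), other filters and thresholds, and leaving out each library. Reads carry no molecular identifiers, so limits cover counting error only. The values of some genes of the lists are not reported here.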

Additional observations from a re-analysis of the deposited data

How the results depend on the processing

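Of the 112 values of single feedback genes under the 13 other fits, 110 lay within 1 SD of the reported value. The exceptions were Spry1 by limma-voom (0.83) and Etv5 without control replicate 3 (4.01). SD here is that of log2(CPM + 0.5) among libraries within groups. For Dusp4 (0.37), Dusp5 (0.18), Spry1 (1.1) and Spry4 (0.54) it exceeded the size of the fold change, so a change of sign can lie within it. The fits also share libraries, so this count is not a measure of stability. The median over the feedback genes was 0.83 by limma-voom, which is the value of Spry1, a gene given no direction above. A filter of 10 CPM in 3 libraries kept 4 feedback genes, Dusp5, Dusp6, Spred1 and Spry2, with a median of 0.63. Leaving out single libraries gave medians of -0.2 to 0.18. Dusp6 had an adjusted p under 0.05 in every fit with all libraries except that with the replicate block. DESeq2 and the fit with no filter added Spred1 and Etv5, and the stricter filter Spred1. Because this same contrast chose the feedback genes, these calls describe the fits and are not support for a change in those genes. Over all genes edgeR called 31 higher and 36 lower. The counts were 200 and 256 by DESeq2, 171 and 258 with no filter, 63 and 115 with the stricter filter, 57 and 87 at an adjusted p under 0.1, and 1 and 1 at 0.01, and limma-voom called 60 lower. Leaving out single libraries gave 0 to 24 higher and 0 to 31 lower, with 0 higher and 2 lower without control replicate 3. Of the other pathway genes, 0 higher and 3 lower were called; DESeq2 and no filter each gave 1 higher and 7 lower, an adjusted p under 0.01 gave 0 lower, and leaving out single libraries gave 0 higher and 0 to 1 lower. With the replicate block there were 3 higher and 5 lower over all genes and 0 lower among pathway genes. The labels do not say whether same-numbered libraries are paired. Deviations of same-numbered libraries from their group means correlated at -0.229, -0.112 and 0.204. Only the libraries numbered 3 correlated best with their own number (control 2 with IGF-1 1 at 0.268, control 1 with IGF-1 2 at 0.259). With 3 libraries per group, whose deviations sum to 0, these correlations cannot decide on pairing. The fit with the replicate block is therefore not set aside. The cause of the differences between the fits was not tested. Low counts limit Dusp4, Spry1, Spry4 and Etv4, and also the control level of Etv5 (8, 24 and 67 counts), on which its fold change rests.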
